A study of Mus musculus with 20 samples.

Results

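The genes described here are 40 interferon-stimulated and cytosolic nucleic acid sensing genes, taken by name from a list, and all 40 had a row among the 28632 genes of the count table. They were followed in 20 bulk RNAseq libraries of mouse pancreatic islets, all from mice of 12 weeks on the C57BL/6N background. The groups were 6 Ctrl, 4 β-Mfn1KO (labelled Mfn1-/-), 5 β-Mfn2KO (labelled Mfn2-/-) and 5 β-Mfn1/2DKO (labelled Mfn1-/-;Mfn2-/-) libraries. Females and males numbered 3 and 3 in Ctrl, 3 and 1 in β-Mfn1KO, 2 and 3 in β-Mfn2KO, and 2 and 3 in β-Mfn1/2DKO islets. The knockouts carried floxed alleles recombined by Ins1-Cre, which is active in β-cells, so the other cells of the islet kept both mitofusins. Ctrl animals are labelled wild type, while the methods of the study pool Ins1-Cre mice without floxed alleles and floxed mice without Cre. The comparison asks whether loss of mitochondrial fusion in β-cells is accompanied by a change in these genes, because nucleic acid that leaves a mitochondrion can be read by cytosolic sensors.

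Type I and type III interferons bind receptors at the cell surface, and the kinases JAK1 and TYK2 then pass the signal to transcription factors. A complex that holds STAT2 and IRF9 binds the interferon-stimulated response element (ISRE) in front of target genes, whereas interferon γ acts mainly on the gamma-activated site (GAS). Interferon itself is made after cytosolic RNA is bound by RIG-I (Ddx58) or MDA5 (Ifih1), or cytosolic DNA by cGAS (Mb21d1), which signals through STING (Tmem173). Islets are known to raise these genes strongly upon viral infection and in autoimmune diabetes, where class I antigen presentation by β-cells is a long-standing hallmark.

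Total counts per library were 12.4 to 20.3 M in Ctrl, 15.7 to 16.7 M in β-Mfn1KO, 15.1 to 59.5 M in β-Mfn2KO, and 65.5 to 122.9 M in β-Mfn1/2DKO islets, and depth cannot be told apart from the double knockout. Mfn1 was lower in β-Mfn1KO (log2 fold change -1.31) and β-Mfn1/2DKO islets (-1.07), and Mfn2 was lower in β-Mfn2KO (-1.15) and β-Mfn1/2DKO islets (-0.75), each against Ctrl and in the direction of its label. The summed normalized count of 12 β-cell genes was 2723120 to 3690911 in β-Mfn1/2DKO and 6009216 to 9785261 in all other libraries, so β-cell RNA was present throughout. In bulk RNA, fewer cells of a type and less RNA per cell cannot be told apart. Values below are counts divided by a library factor (normalized counts), and a gene is called where it exceeds 1.5-fold and its adjusted p is under 0.05. Adjusted p-values come from the quasi-likelihood test of edgeR, adjusted over all genes by the Benjamini-Hochberg method.

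In RefSeq promoter windows of GRCm38.p6, from 250 bases before to 50 after the start, 29 of the 40 genes had a match. Of these 29, 15 (51.7%) held the ISRE letters GAAANNGAAA on either strand, with overlapping matches counted, against 1079 of 27025 genes (3.99%). The GAS letters TTCNNNGAA, which read the same on both strands, stood in 7 of 29 (24.1%), against 2582 of 27025 (9.55%). A match of letters is a description and not a binding site. The stretches below are of genes picked, with their values known, for rising in single libraries as described later. Other genes did not follow the letters. In β-Mfn2KO replicate 5 the log2 excess was 2.44 for Ifi44, which lacks them, and 0.17 for Ifih1, which has them. Capitals mark a match to the ISRE letters, and TTTCNNTTTC is the same motif read on the other strand. The Isg15, Ifit1, Bst2 and Gbp3 stretches hold further matches, left wholly or partly in lower case.
Isg15 (chr4:156200856-156200915, minus strand): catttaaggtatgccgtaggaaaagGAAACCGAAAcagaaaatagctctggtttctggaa
Ifit1 (chr19:34640760-34640819, plus strand): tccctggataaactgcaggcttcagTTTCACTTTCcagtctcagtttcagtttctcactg
Ifit3 (chr19:34583348-34583407, plus strand): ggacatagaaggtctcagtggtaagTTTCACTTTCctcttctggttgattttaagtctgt
Ifit3b (chr19:34607744-34607803, plus strand): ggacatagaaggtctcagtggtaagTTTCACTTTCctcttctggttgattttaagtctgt
Bst2 (chr8:71537562-71537621, minus strand): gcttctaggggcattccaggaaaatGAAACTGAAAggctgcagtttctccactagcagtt
Gbp3 (chr3:142559974-142560033, plus strand): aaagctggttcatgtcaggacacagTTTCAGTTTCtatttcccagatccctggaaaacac
B2m (chr2:122147523-122147582, plus strand): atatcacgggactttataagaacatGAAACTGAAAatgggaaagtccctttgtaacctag
The Ifit3 and Ifit3b stretches carry the same letters over all 60 bases, and the transcripts of this pair also overlap in sequence, with 41.1% of the 75-base stretches of Ifit3 found in another gene, mostly Ifit3b. Reads of Ifit3 and Ifit3b, and of Oas1a (47.6% shared, mostly with Oas1g), may therefore have been divided between copies.

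The 40 genes ranged widely in level in Ctrl islets. Per kilobase of exon, B2m, the light chain of class I molecules, was the highest at 3797 ± 711 normalized counts (SD, n = 6). It was followed by Ifi27 at 1524 ± 251, Irf1 at 696 ± 50.8 and Ifi35 at 679 ± 39.3 per kilobase. Irf1 and Ifi35 differed by less than the SD of either. At the bottom of the order were Gbp4 at 5.46 ± 1.62, Ifi44 at 4.63 ± 2.49 and Oas3 at 1.68 ± 1.52 per kilobase. Gbp4 and Ifi44 differed by less than the SD of either, whereas Ifi44 and Oas3 differed by more. Both RNA sensors stood far above the DNA sensor, with Ifih1 at 203 ± 27 and Ddx58 at 150 ± 7.76 per kilobase, against 6.72 ± 3.18 for Mb21d1 and 14.9 ± 6.58 for Tmem173. The median coefficient of variation over the 40 genes was 22.4% in Ctrl, 21.8% in β-Mfn1KO, 22.1% in β-Mfn1/2DKO and 49.4% in β-Mfn2KO islets. For the 16525 genes whose mean reached 10 normalized counts it was between 9.09% and 11.9% in each group, so these genes varied more between libraries of a group than the typical gene.

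**Figure D1:**
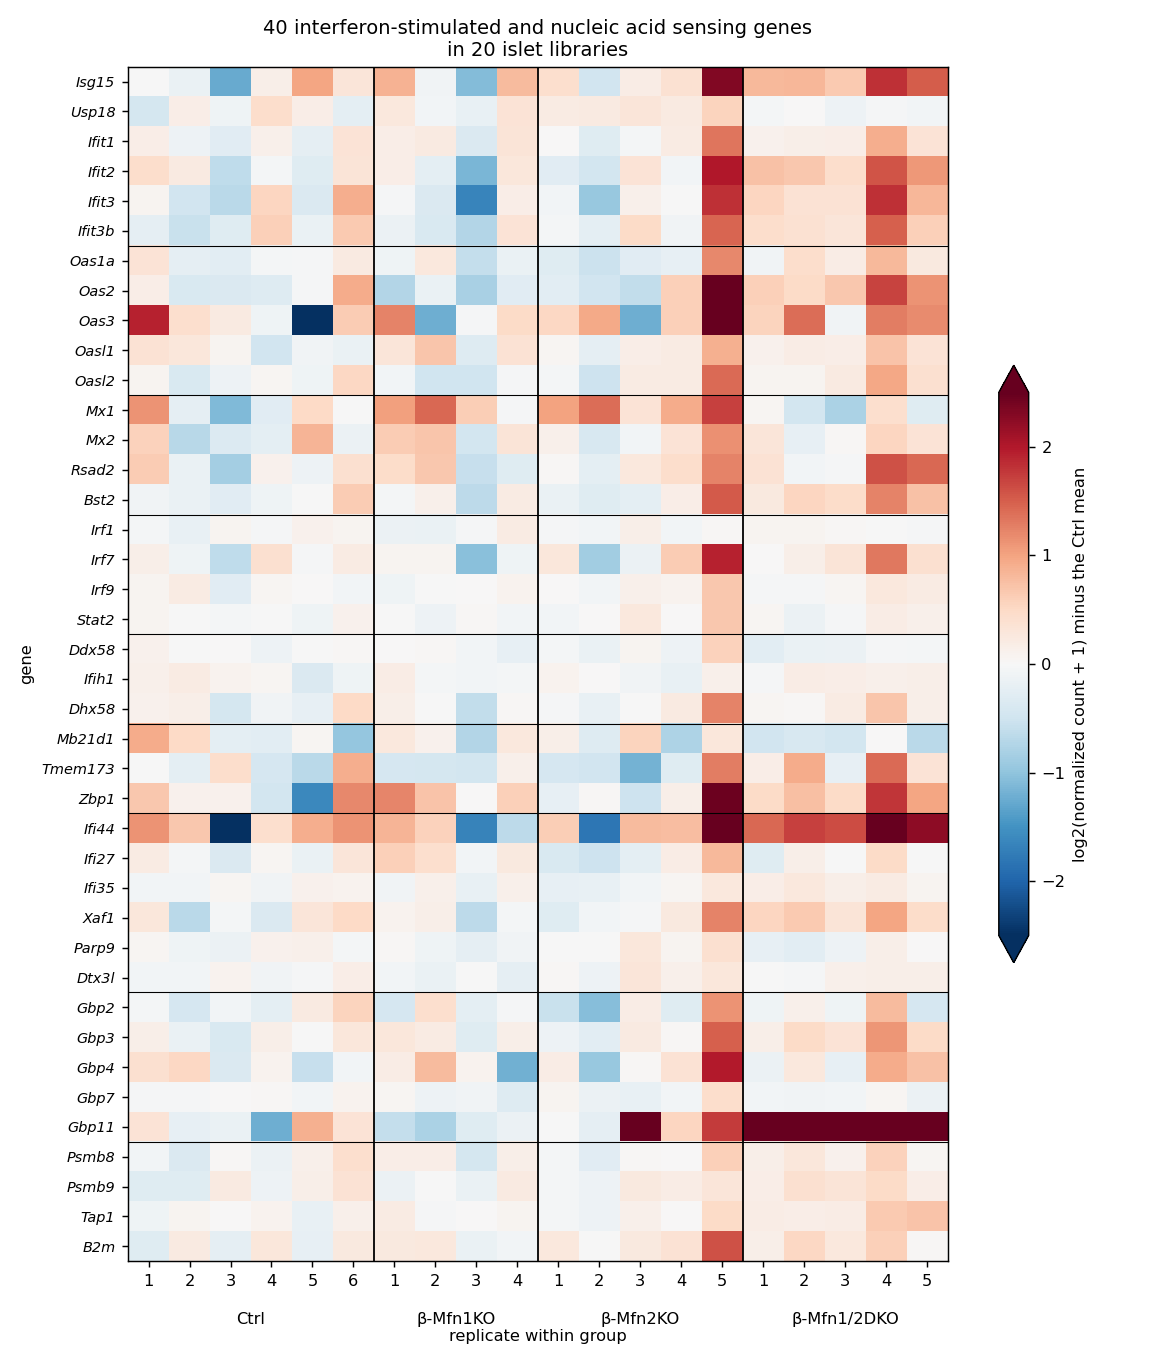
Each row is 1 of the 40 genes, in blocks by role, and each column 1 of the 20 libraries. Colour gives log2(normalized count + 1) minus the Ctrl mean of that gene, with red above and blue below, and colours saturate beyond 2.5. The column of β-Mfn2KO replicate 5 is red in nearly every row, β-Mfn1/2DKO replicate 4 is the next, and Gbp11 is red in all 5 β-Mfn1/2DKO libraries and in β-Mfn2KO replicate 3.

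Single libraries stood apart across these genes. The library β-Mfn2KO replicate 5, from a male, was above its group's median in 40 of 40 genes, the highest of its group in 36, and the highest of all 20 libraries in 29. Over those 16525 genes, the same library was the highest of its group in 24.9%. Its value over the mean of the other β-Mfn2KO libraries, on the log2(value + 1) scale, had a median of 1.18 and exceeded 2-fold in 23 genes. The excess on that scale was 6.49-fold for Oas2, 5.96-fold for Zbp1, 5.44-fold for Ifi44, 4.43-fold for Isg15 and 3.59-fold for Irf7. It was small for Irf1 (1.03-fold), Ifih1 (1.13-fold) and the overlapping pair Psmb9 (1.18-fold) and Tap1 (1.4-fold). β-Mfn1/2DKO replicate 4 was the highest of its group in 33 of 40 genes, with a median log2 excess of 0.54, led by Ifi44 (3.03-fold) and Ifit3 (2.43-fold). In β-Mfn2KO islets the excess of replicate 5 had a median of 1.42 on the log2 scale over the 15 genes with ISRE letters and 0.65 over the 14 matched genes without them, with ranges of 0.17 to 2.43 and 0.04 to 2.44.

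**Figure D2:**
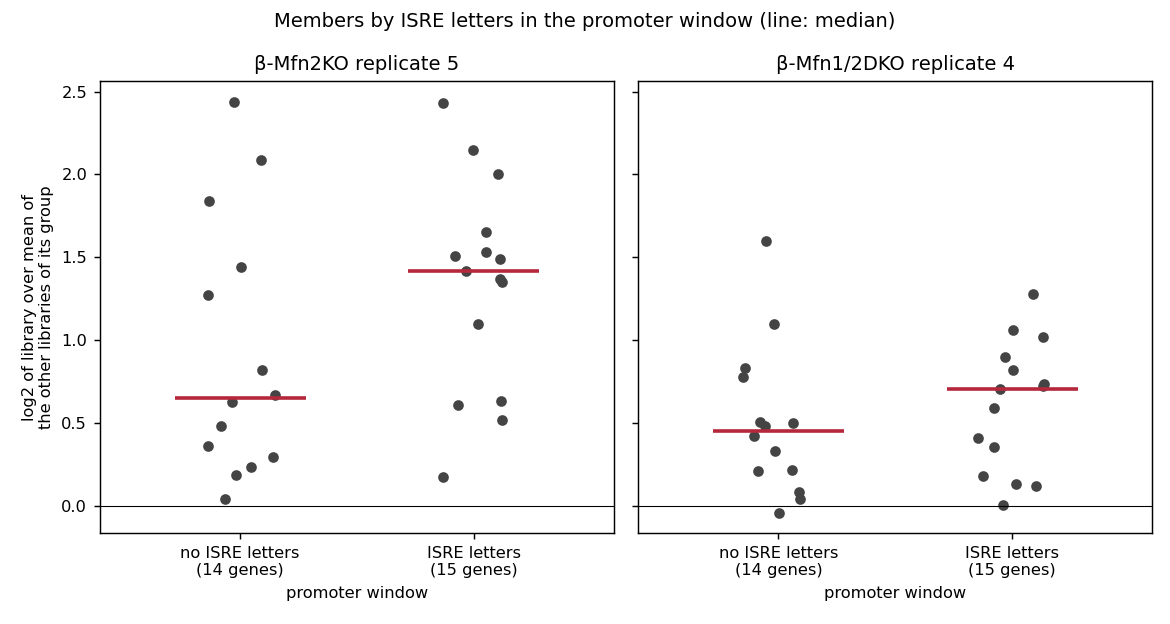
Points are the 29 genes with a promoter window, split by whether the window holds the ISRE letters, and the y axis is the log2 excess of 1 library over the mean of the others of its group. The median (line) for β-Mfn2KO replicate 5 was 1.42 with the letters and 0.65 without, with wide overlap.

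Immune cell markers moved with the same libraries. The sum of 14 macrophage markers was 43044 normalized counts in β-Mfn2KO replicate 5 and 31088 in Ctrl replicate 6, against a range of 4318 to 9426 in the other 18 libraries. The sum of 9 stellate and fibroblast markers followed, at 15002 and 13816 in the same libraries against at most 4762 elsewhere. In those libraries Lyz2, the lysozyme of macrophages and other myeloid cells, was 26334 and 18202. The macrophage sum of β-Mfn1/2DKO replicate 4 was 9426, and its sum of 14 lymphocyte markers was 2274, against 108 to 595 elsewhere, with Ighm, the immunoglobulin heavy chain of B cells, at 1427. Of the T-cell markers, Cd3e was at 0 in 13 of 20 libraries and at most 20.4, Trbc2 was at 0 in 11 and at most 58, and Cd4 was above 0 in every library and at most 97.6. The list of 8 plasmacytoid dendritic cell markers had Siglech at no more than 5.8 in any library, and its high sums followed Klk1, which reached 30679 in β-Mfn1/2DKO replicate 5. Ctrl replicate 6, with the second highest macrophage sum, was the highest of its group in 19 of 40 genes with a median log2 excess of 0.25. The part of these cells in the values of the 40 genes was not tested.

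**Figure D3:**
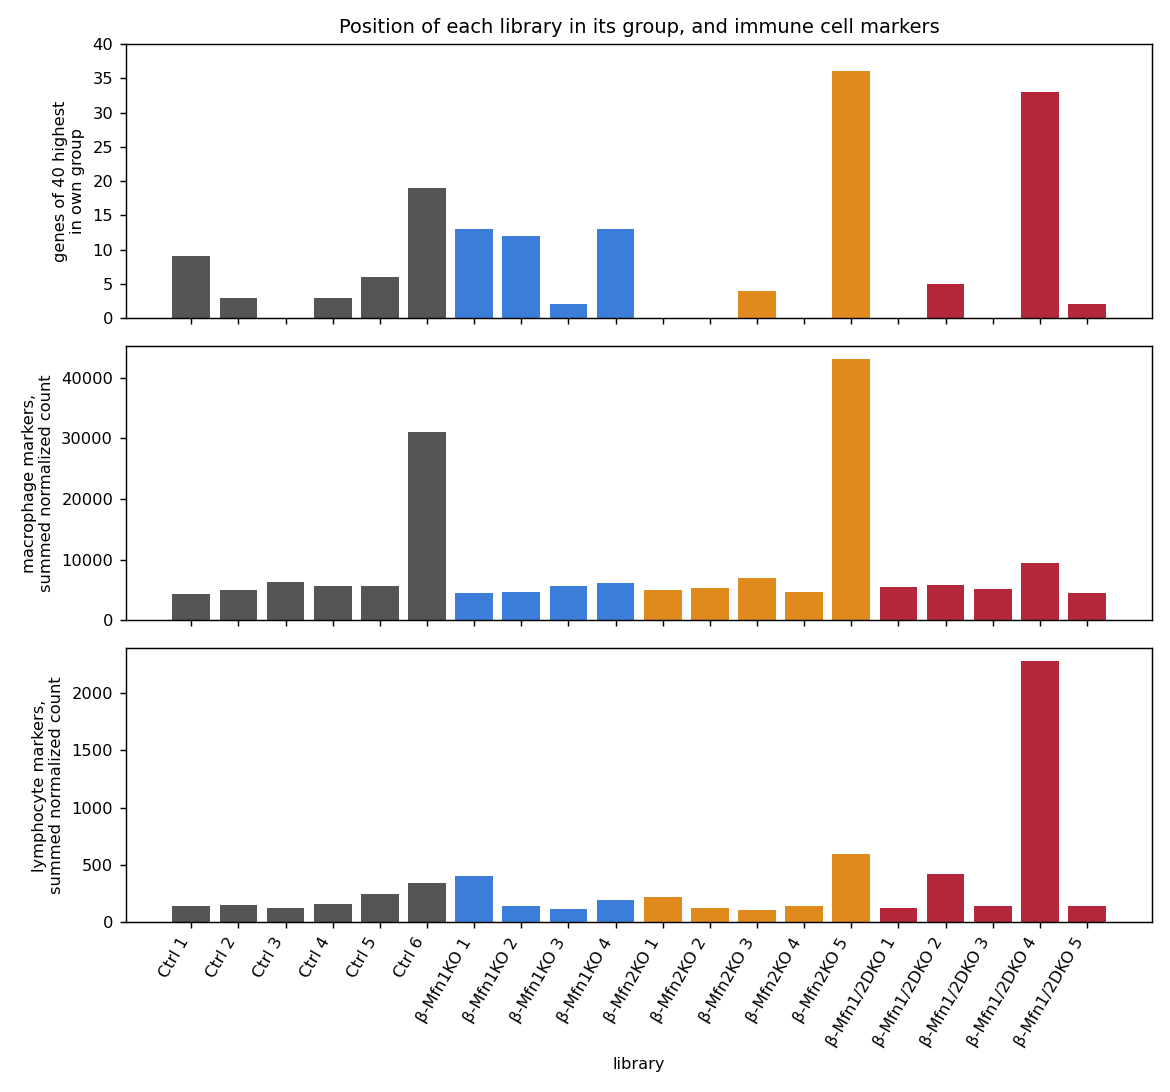
Bars are the 20 libraries, coloured by group. The top panel counts, out of 40, the genes for which a library is the highest of its group, and the lower panels give the summed normalized counts of macrophage and lymphocyte markers. β-Mfn2KO replicate 5 (36 genes, macrophage sum 43044) and β-Mfn1/2DKO replicate 4 (33 genes, lymphocyte sum 2274) stand out, while Ctrl replicate 6 has a macrophage sum of 31088 and 19 genes.

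In β-Mfn1/2DKO islets, 34 of the 40 genes lay above Ctrl, with a median log2 fold change of 0.31, against a median of 0.06 and 55.5% of genes above Ctrl over all 28632. Only 1 of the 40 was called, Gbp11, and Tap1 also had an adjusted p under 0.05. Over all genes, 5.21% were called and 16.5% had an adjusted p under 0.05 (9.59% higher), so the count among the 40 was below the background. At an unadjusted p under 0.05 there were 12. The share of all genes at that threshold was not counted and is at least 16.5%, so the 12 have no background to be read against. The 3 genes whose β-Mfn1/2DKO libraries all lay above all Ctrl libraries were Gbp11, Ifi44 and Tap1, against 6.56% of all genes.

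Where the fit held only the 17 libraries left after removing those with the highest macrophage or lymphocyte sums (Ctrl replicate 6, β-Mfn2KO replicate 5 and β-Mfn1/2DKO replicate 4), a choice made after seeing the data, 8 of the 40 genes had an adjusted p under 0.05 and all 8 were higher in β-Mfn1/2DKO islets. Over the 28237 genes of that fit 15.7% did, and 9.96% were higher. The share among the 40 was above both, and that difference was not tested. The removed β-Mfn2KO and β-Mfn1/2DKO libraries were the highest of their groups in 36 and 33 of the 40 genes. Over all 16525 genes of sufficient level they were the highest in 24.9% and 17.6%. Their removal thus acts unevenly on the 40 genes, and the shares are not a like comparison. The 8 were Gbp11, Bst2, Oas2, Tap1, Gbp3, Ifit2, Xaf1 and Psmb9. The median log2 fold change of the 40 genes moved from 0.31 to 0.26. It went from 0.65 to 0.66 for Bst2, a membrane tether that holds budding virus, from 0.92 to 0.94 for Oas2, from 0.92 to 0.79 for Ifit2 and from 0.53 to 0.44 for Gbp3. Among genes that did not pass, Ifi44 went from 1.68 to 1.32, Irf7 from 0.49 to 0.25 and Mb21d1 from -0.54 to -0.79. Standard errors fell from 0.28 to 0.14 for Bst2 and from 0.45 to 0.24 for Oas2. Removing β-Mfn2KO replicate 5 alone, which is in neither group of this comparison but enters the shared estimate of spread, gave 10 of 40, all higher, against 17.9% of all genes and 11.6% higher. The same limit holds for that count. With depth class as a term the median log2 fold change of the 40 genes turned to -0.45 and 1 remained under 0.05, and that term rests on β-Mfn2KO replicates 4 and 5 against replicates 1 to 3.

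**Figure D4:**
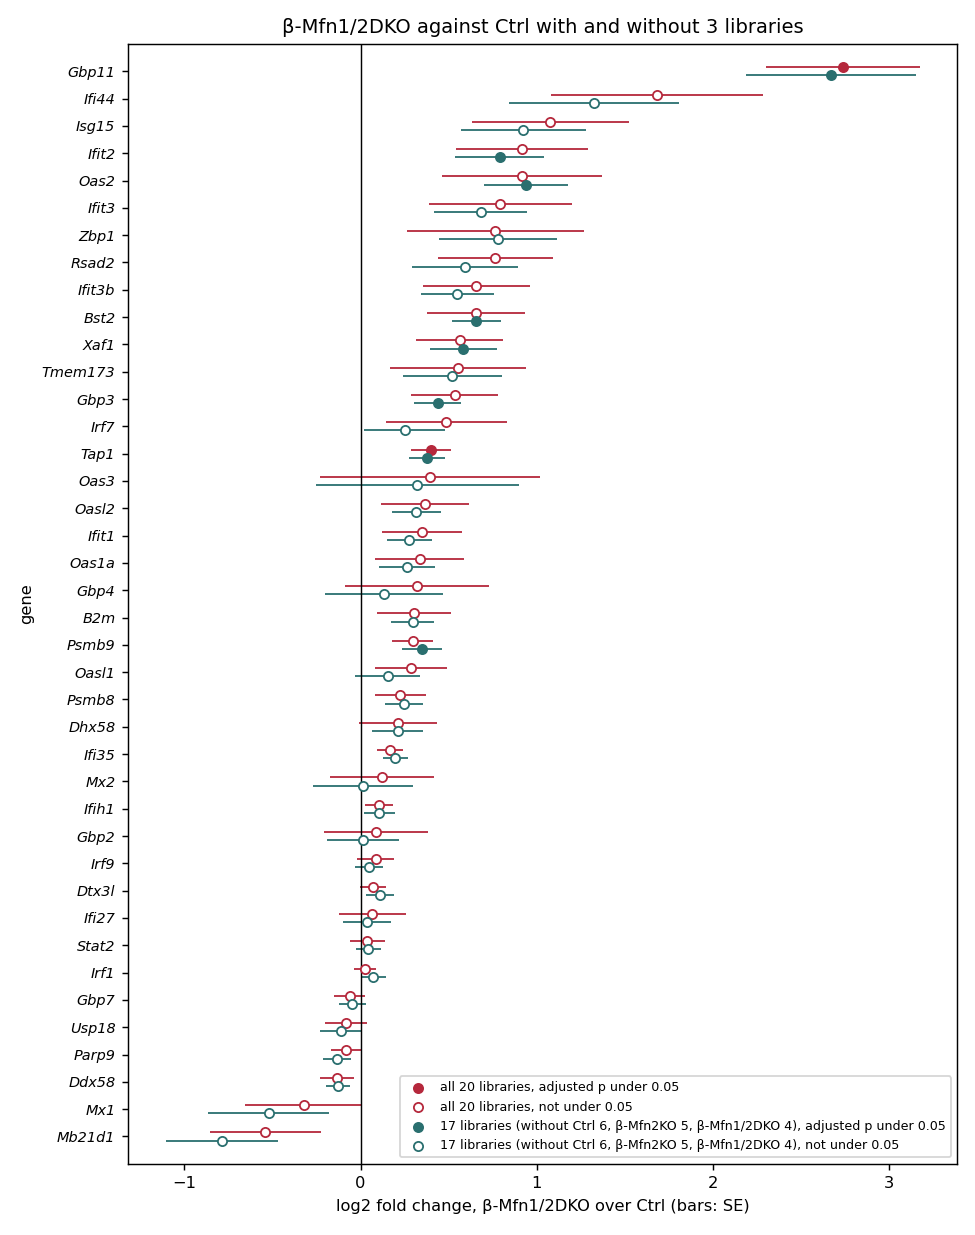
Log2 fold change of the 40 genes in β-Mfn1/2DKO over Ctrl islets, with bars of 1 SE, fitted on all 20 libraries (red) and on 17 libraries (green). Filled points have an adjusted p under 0.05, which are 2 genes with all libraries and 8 without the 3 libraries high in immune markers. The pairs of Bst2 (0.65 and 0.66) and Oas2 (0.92 and 0.94) nearly coincide, and those of Ifi44 (1.68 and 1.32) and Irf7 (0.49 and 0.25) lie apart.

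Among the guanylate-binding proteins, GTPases that attack pathogen-containing vacuoles, Gbp11 stood apart. Gbp11 (ENSMUSG00000092021, chr5:105323042-105346472, minus strand, GRCm38) is annotated as a polymorphic pseudogene, a gene that is intact in some strains only. In Ctrl islets it was 43.6, 29.6, 30.4, 14, 64.1 and 43.6 normalized counts, and in β-Mfn1KO islets 22.3, 19.2, 27.3 and 30.5. Before scaling, Gbp11 had only 4 to 22 counts in Ctrl and 7 to 11 in β-Mfn1KO libraries. In β-Mfn2KO islets it was 33.9, 29, 280, 50 and 116.2, and in β-Mfn1/2DKO islets 230.3, 202.4, 208.9, 341 and 276.6. All 5 β-Mfn1/2DKO libraries lay above every Ctrl and β-Mfn1KO library, and β-Mfn2KO replicate 3 fell within the β-Mfn1/2DKO range. Its log2 fold change reached 2.74 ± 0.44 (SE) against Ctrl (adjusted p = 0.000112, edgeR), 3.33 ± 0.54 against β-Mfn1KO (adjusted p = 0.000106, edgeR) and 1.33 ± 0.41 against β-Mfn2KO islets (adjusted p = 0.0346, edgeR). The call against β-Mfn2KO islets was lost in 12 alternatives and kept in 23, and was lost in the 17 libraries described above (adjusted p = 0.0788, edgeR). It was also lost without any 1 of β-Mfn2KO replicates 1, 2 and 4 and β-Mfn1/2DKO replicates 4 and 5, with adjusted p-values of 0.0584 to 0.0926 (edgeR). Of its 75-base stretches, 10.3% occur in another gene, most of them in Gbp4, and Gbp4 itself was between 26.2 and 57.1 in Ctrl and between 33.9 and 76 in β-Mfn1/2DKO islets.

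Of the other Gbp genes near Gbp11 on chromosome 5, Gbp6 and Gbp8 were higher in β-Mfn1/2DKO islets at an adjusted p under 0.05, while Gbp4, Gbp9 and Gbp10 overlapped Ctrl. Gbp8 was 129.8 to 255.3 normalized counts in Ctrl, 263.2 to 297.2 in β-Mfn1/2DKO and 298.8 in β-Mfn2KO replicate 3. Gbp6 was 298.2 to 607.1 in Ctrl and 839.4 to 1849 in β-Mfn1/2DKO islets, with 678.4 in β-Mfn2KO replicate 3 and 1438 in replicate 5. Gbp6 was called (log2 fold change 1.48 ± 0.30 SE, adjusted p = 0.0013, edgeR), whereas Gbp8 had an adjusted p of 0.0452 and a log2 fold change of 0.50. Gbp9 was 98.2 to 150.2 in Ctrl and 116.8 to 219.1 in β-Mfn1/2DKO islets. Gbp10 was 8.5 to 24.9 in Ctrl and 13.8 to 128.2 in β-Mfn1/2DKO islets, where replicates 1 and 3 lay within the Ctrl range. Of the other members of the family, Gbp3 had a log2 fold change of 0.53, Gbp4 of 0.32, Gbp2 of 0.09 and Gbp7 of -0.06, none with an adjusted p under 0.05.

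Tap1, a subunit of the transporter that carries peptides to class I molecules (ENSMUSG00000037321, chr17:34187553-34197225, plus strand), was 654.2, 740.4, 717.2, 747.2, 623.7 and 775.2 normalized counts in Ctrl and 802.2, 797.5, 809.3, 1121 and 1155 in β-Mfn1/2DKO islets. The groups did not overlap, but 3 β-Mfn1/2DKO libraries lay just above the highest Ctrl library and the high values were replicates 4 and 5. These libraries were also the richest in acinar genes, with sums of 713953 and 1835842 over 15 genes against 4480 to 304613 in the others. On the log2 scale the difference was 0.40 ± 0.11 (SE; adjusted p = 0.0157, edgeR), 0.31 without replicate 5 (adjusted p = 0.0595, edgeR), and 0.20 without replicates 4 and 5 (adjusted p = 0.257, edgeR). Tap1 overlaps Psmb9 on the opposite strand, so that reads of the 2 genes are uncertain where the counting did not use strand.
The other class I members pointed the same way with adjusted p-values above 0.05. Psmb9 and Psmb8, catalytic subunits of the immunoproteasome, had log2 fold changes of 0.30 ± 0.12 and 0.23 ± 0.15 (SE), and B2m of 0.30 ± 0.21. B2m was 2602 to 3925 normalized counts in Ctrl and 3285 to 4889 in β-Mfn1/2DKO islets, which overlap, and 9710 in β-Mfn2KO replicate 5.

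Of the ISGylation and tetratricopeptide genes, Isg15, a ubiquitin-like protein attached to other proteins after interferon, was 37.8, 33.8, 15.2, 42.1, 75.8 and 46.7 normalized counts in Ctrl and 67.6, 67.8, 60.3, 136 and 110.3 in β-Mfn1/2DKO islets. Only Ctrl replicate 5 reached into the β-Mfn1/2DKO range. On the log2 scale the difference was 1.08 ± 0.44 (SE; adjusted p = 0.107, edgeR), 0.92 ± 0.35 with 17 libraries (adjusted p = 0.0847, edgeR) and 1.10 ± 0.33 without β-Mfn2KO replicate 5 (adjusted p = 0.0232, edgeR). Isg15 lies 8.29 Mb from Mfn2 on chromosome 4. Ifit1, which binds viral RNA lacking cap methylation, had a log2 fold change of 0.35 ± 0.23, with 382.9 to 597.7 in Ctrl and 507 to 875.1 in β-Mfn1/2DKO islets. Ifit2, Ifit3 and Ifit3b had log2 fold changes of 0.92, 0.79 and 0.66, with adjusted p-values above 0.05. Usp18, which removes ISG15 and restrains the interferon receptor, went the other way at -0.08 ± 0.12.

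The 5 genes of the 2-5A synthetase family, whose active members make the second messenger that activates RNase L, ranged from 0.29 to 0.92 in log2 fold change. All had adjusted p-values above 0.05. Oas2 led with 57.1 to 143.2 normalized counts in Ctrl and 104.2 to 243.4 in β-Mfn1/2DKO islets, and only Ctrl replicate 6 overlapped. Oas3 was close to the floor of detection, with a count of 0 in Ctrl replicate 5.

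**Figure D5:**
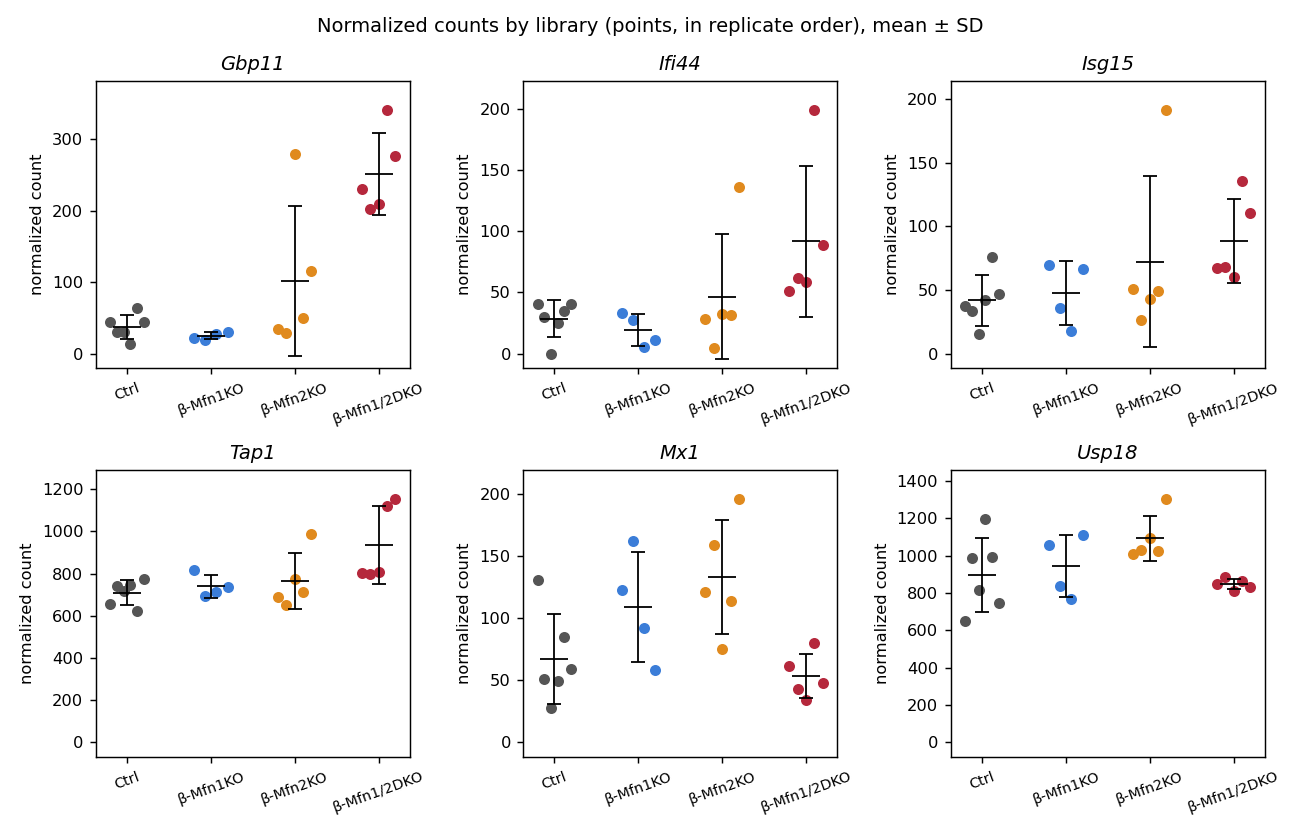
Normalized counts of 6 genes in each library (points, left to right by replicate number), with the group mean and SD (line and bars). Gbp11, Ifi44 and Tap1 lie higher in every β-Mfn1/2DKO than in every Ctrl library, Mx1 and Usp18 lie lower in β-Mfn1/2DKO than in β-Mfn2KO islets with 1 overlapping value for Mx1, and the highest β-Mfn2KO point is replicate 5 for all but Gbp11.

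Mx1 followed another order of the groups. Mx1 encodes a dynamin-like GTPase that blocks influenza virus, and many laboratory strains carry a defective allele. It was 130.8, 50.8, 27.4, 49.1, 84.5 and 59.1 normalized counts in Ctrl, 122.8, 162.2, 91.9 and 58.2 in β-Mfn1KO, 121.3, 158.6, 75.4, 113.7 and 196.1 in β-Mfn2KO, and 61.8, 43.3, 34.2, 80.3 and 48 in β-Mfn1/2DKO islets. The β-Mfn1/2DKO libraries thus lay within the Ctrl range and, but for replicate 4, below every β-Mfn2KO library. Mx1 was lower in β-Mfn1/2DKO than in β-Mfn2KO islets by -1.32 ± 0.33 on the log2 scale (SE; adjusted p = 0.00844, edgeR) and than in β-Mfn1KO islets by -1.02 ± 0.36 (adjusted p = 0.0508, edgeR). Against Ctrl, its log2 fold change was 1.003 ± 0.33 in β-Mfn2KO, 0.70 ± 0.36 in β-Mfn1KO and -0.32 ± 0.33 in β-Mfn1/2DKO islets, none with an adjusted p under 0.05. The Mfn1 by Mfn2 interaction, that is the double knockout's log2 fold change against Ctrl minus those of both single knockouts, was -2.02 ± 0.49 (SE; adjusted p = 0.0141, edgeR). The interaction test was added after seeing the data. Mx1 was the only one of the 40 genes with an adjusted p under 0.05 for the interaction, against 5.92% of all genes, and Gbp11 followed with 1.93 ± 0.70 (adjusted p = 0.12, edgeR). Mx2, its neighbour on chromosome 16, did not share the pattern, with a log2 fold change of -0.15 between β-Mfn1/2DKO and β-Mfn2KO islets.

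Against β-Mfn2KO islets, 3 of the 40 genes had an adjusted p under 0.05 (Mx1, Gbp11 and Usp18), against 13.0% of all genes, and 2 were called (Mx1 and Gbp11), against 3.84%. Usp18 was the one gene with all β-Mfn1/2DKO libraries below all β-Mfn2KO libraries, as were 5.26% of all genes. It was 1010, 1028, 1093, 1027 and 1304 normalized counts in β-Mfn2KO and 850.2, 883.7, 810.4, 865 and 834.2 in β-Mfn1/2DKO islets. The groups did not overlap, and the difference on the log2 scale was -0.37 ± 0.12 (SE; adjusted p = 0.0482, edgeR). The adjusted p rose above 0.05 in 23 alternatives, including each fit without 1 library of either group, and stayed under it in 12. The value without β-Mfn2KO replicate 5 was -0.27 (adjusted p = 0.165, edgeR). That library also set the direction of the whole set: with it, 21 of 40 genes were higher in β-Mfn1/2DKO islets at a median log2 fold change of 0.01, and without it 35 of 40 were, at a median of 0.40 against 0.08 over all genes. Without it, 13 of the 40 genes had an adjusted p under 0.05, of which 12 were higher and Mx1 was lower, against 13.1% of all genes (8.05% higher). That library was the highest of its group in 36 of the 40 genes, so these shares are not a like comparison. Among the 12 higher genes were Bst2 (0.82 ± 0.20), Ifit2 (1.08 ± 0.28), Oas2 (1.07 ± 0.30) and Ifi44 (1.91 ± 0.55, log2 fold changes ± SE).

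Ifi44, an interferon-induced protein of the cytoplasm, was called against β-Mfn1KO islets, as was Gbp11, making 2 of 40 against 6.71% of all genes called and 17.4% with an adjusted p under 0.05. Ifi44 was 33.5, 27.5, 5 and 11.1 normalized counts in β-Mfn1KO and 51, 61.8, 58.6, 199.1 and 88.5 in β-Mfn1/2DKO islets. All β-Mfn1/2DKO values were higher, by 2.26 ± 0.73 on the log2 scale (SE; adjusted p = 0.0331, edgeR), which was 1.79 without β-Mfn1/2DKO replicate 4 (adjusted p = 0.0972, edgeR). The adjusted p rose above 0.05 in 10 alternatives and stayed under it in 24. Among the 10 were sex as a term (adjusted p = 0.086, edgeR) and the fit without β-Mfn1KO replicate 3 (adjusted p = 0.108, edgeR). In Ctrl, Ifi44 was 40.7, 29.6, 0, 24.6, 35 and 40.5, and the log2 fold change against Ctrl was 1.68 ± 0.60 (adjusted p = 0.0587, edgeR). In 8 of 40 genes all β-Mfn1/2DKO libraries lay above all β-Mfn1KO libraries, against 10.8% of all genes, and these were Ifit2, Ifit3, Oas2, Oasl2, Ifi44, Bst2, Xaf1 and Gbp11. In all, 34 of 40 were higher, with a median log2 fold change of 0.28 against 0.09 over all genes.

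The transcription factors and RNA sensors had no adjusted p under 0.05 in any comparison. Stat2 and Irf9, which encode parts of the complex that binds the ISRE, had log2 fold changes of 0.04 ± 0.10 and 0.09 ± 0.11 (SE) in β-Mfn1/2DKO against Ctrl islets. Irf7, the factor that amplifies interferon production, was at 0.49 ± 0.34, with 449.8 to 922.6 normalized counts in Ctrl, 695.5 to 1732 in β-Mfn1/2DKO and 2645 in β-Mfn2KO replicate 5. Irf7 overlaps Phrf1, whose mean count was 260.2% of that of Irf7, and Irf9 overlaps Rnf31, at 144.5%, so both levels are uncertain. Ddx58 was -0.13 ± 0.10 and Ifih1 0.11 ± 0.08, with ranges in β-Mfn1/2DKO islets of 880 to 1029 and 1614 to 1877 that overlapped those of Ctrl, 971.7 to 1140 and 1282 to 1889.

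The DNA sensing genes were low in all libraries. Mb21d1 was 12.5 to 49.4 normalized counts in Ctrl and 15.6 to 25.5 in β-Mfn1/2DKO islets, a difference of -0.54 ± 0.31 on the log2 scale (SE; adjusted p = 0.288, edgeR). Tmem173 was 23.3 to 71.6 in Ctrl and 32.5 to 102.3 in β-Mfn1/2DKO islets, a log2 fold change of 0.55 ± 0.39 (adjusted p = 0.399, edgeR). Zbp1, a sensor of left-handed nucleic acid that can start necroptosis, was 5.8 to 46.7 in Ctrl and 27.7 to 70.5 in β-Mfn1/2DKO islets (0.77 ± 0.50, adjusted p = 0.363, edgeR). In each case the groups overlapped, and Tmem173 and Zbp1 were highest in the libraries rich in immune cell markers, Zbp1 at 112.9 and Tmem173 at 93.8 in β-Mfn2KO replicate 5 and Tmem173 at 102.3 in β-Mfn1/2DKO replicate 4.

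For the single knockouts against Ctrl, the number of the 40 genes below an adjusted p of 0.05 was 0 in edgeR and 0 in DESeq2. Over all genes, 0.0279% had one in β-Mfn1KO and 0.0559% in β-Mfn2KO islets in edgeR. At an unadjusted p under 0.05 there were 0 in β-Mfn1KO and 5 in β-Mfn2KO islets, and the share of all genes at that threshold was not counted. In β-Mfn1KO islets 15 of 40 genes lay above Ctrl, with a median log2 fold change of -0.05. In β-Mfn2KO islets 36 of 40 did, with a median of 0.31, but without replicate 5 it was 13 of 40 and a median of -0.04. The effect of the double knockout was compared between males and females, with an adjusted p under 0.05 for 0 of 28256 genes (0%) in edgeR, and for Tap1 the male minus female difference was 0.35 ± 0.19 (SE).

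Around the 40 genes, the interferon system itself was examined by lists. Of 8 interferon and receptor genes analysed, 1 passed in β-Mfn1/2DKO against Ctrl islets: Ifngr2, the signalling chain of the interferon γ receptor, was 379.9 to 492.5 normalized counts in Ctrl and 594.1 to 921.5 in β-Mfn1/2DKO islets, a difference of 0.66 ± 0.12 on the log2 scale (SE; adjusted p = 0.000314, edgeR). Its partner Ifngr1 was 715.6 to 886.3 in Ctrl and 764.7 to 968.8 in β-Mfn1/2DKO islets, and Ifnar1, of the type I receptor, 1572 to 1787 and 1413 to 1632. The interferon genes Ifnk and Ifnz never exceeded 5.8. The 9 other interferon genes of the list, among them Ifnb1 and Ifng, had no row in the count table. The methods of the study remove genes without a count in any sample. Of the kinases below the receptors, Jak2 was higher by 0.23 ± 0.05 on the log2 scale (SE; adjusted p = 0.00141, edgeR).

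Of 36 genes of the sensing pathways, 5 were higher and 2 lower at an adjusted p under 0.05, and none of those that passed exceeded 1.5-fold. Tank, an adaptor of the kinase TBK1, was higher by 0.37 ± 0.06 (log2, SE) and Myd88, the adaptor of most Toll-like receptors, by 0.36 ± 0.07. Skiv2l, a helicase of cytosolic RNA decay, was lower by -0.31 ± 0.05 and Ticam1, the adaptor of Toll-like receptor 3, by -0.46 ± 0.10. Among further interferon-stimulated genes, Gbp6, Gbp8, Slfn5, Pml and Tor3a were higher at an adjusted p under 0.05. The count of that list is left out, so these names have no share to set against all genes and do not show a rise of the list. Of 16 class I presentation genes, 5 were higher and 2 lower. The class I heavy chains H2-K1 and H2-D1 were higher by 0.38 ± 0.08 and 0.34 ± 0.10, and H2-Q7 was called at 0.88 ± 0.25. Those lower were Calr (-0.52 ± 0.13) and Pdia3 (-0.38 ± 0.11), chaperones of the endoplasmic reticulum that also fold other proteins. Of 16 NF-κB targets, Relb was called in β-Mfn1/2DKO islets (0.76 ± 0.23), reaching 627.8 and 824.9 normalized counts in the acinar-rich replicates 4 and 5 against 316.7 to 360.9 in the others. These counts are to be read against 16.5% of all genes.

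Against β-Mfn1KO islets, list genes called in β-Mfn1/2DKO islets were Slfn5, a restriction factor of the Schlafen family (0.87 ± 0.17, log2, SE), Nlrc5, the transactivator of class I genes (1.11 ± 0.36), Gbp6 (1.54 ± 0.35), Gbp8 (0.69 ± 0.19) and Relb (0.74 ± 0.25), all higher. Lower were Calr (-0.78 ± 0.15), Pdia3 (-0.62 ± 0.12) and Ticam1 (-0.59 ± 0.11). Against β-Mfn2KO islets only Cxcl1, a chemokine that draws neutrophils, was called, lower by -1.69 ± 0.49, with 241.7 normalized counts in β-Mfn2KO replicate 5, 24.2 to 50.8 in the other β-Mfn2KO libraries and 15.2 to 42.3 in β-Mfn1/2DKO islets.

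Markers of several cell types differed between β-Mfn1/2DKO and Ctrl islets. All 10 endothelial markers passed an adjusted p of 0.05 and were higher, by log2 fold changes of 0.29 to 0.88, with sums of 7026 to 10670 in Ctrl and 10264 to 15828 in β-Mfn1/2DKO islets. Of 12 β-cell genes 11 were lower. Of 15 acinar markers 14 were higher in the test, but the acinar sums of β-Mfn1/2DKO replicates 1 to 3 were 19601, 32655 and 19164, within the Ctrl range of 12515 to 79899, and only replicates 4 and 5 lay above it. Of 14 macrophage markers only C1qa passed, lower by -0.54 ± 0.18 (log2, SE), and of 14 lymphocyte markers only Ighm, higher by 3.21 ± 1.03. Endothelial cells also carry class I molecules and interferon-inducible genes, and their part in the values above was not tested.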

How the data were processed

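Mouse islets in 20 samples were profiled by RNAseq. The authors trimmed reads with cutadapt 2.3 (per the submitters' processing notes), checked them with FastQC 0.11.8, aligned them to GRCm38 with STAR 2.6.1b and estimated counts per gene with RSEM 1.3.1. The deposited table holds these expected counts as whole numbers, and the step that rounded them is not stated. The authors also deposited a normalized signal per gene from DESeq2 1.26.0, used here only as offsets in an alternative fit. The strand setting of counting is not given in the sources used here.

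Counts of 28632 genes in 20 libraries (12.4 to 122.9 M each) were scaled by TMM and fitted together in edgeR 4.0.16 (R 4.3.3), with group as the only term and Benjamini-Hochberg adjustment over all genes, and the fit was tested on simulated data. The call (adjusted p under 0.05, fold over 1.5) used the thresholds of the study. Named genes were those of the 40 with an adjusted p under 0.05 in any of 5 comparisons, a fixed set of sensors, factors and effectors, up to 4 called genes of each list, and Mfn1 and Mfn2. Others named in the text, such as Bst2, Oas2 and the neighbours of Gbp11, were chosen after their values were seen. The 40 genes, the lists and the libraries set aside were chosen with earlier results of these data known. Gene symbols came from a name table matching all but 71 identifiers, and loci from GENCODE M21. Results of 1 list gene are not reported here, and the counts of its lists were left out. Alternatives were DESeq2 1.42.0, other scalings, filters, covariates and library subsets. The study gives the sequenced groups as mice in the same numbers as the libraries, so p-values measure the spread between these islet samples.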

Additional observations from a re-analysis of the deposited data

Results flagged for a closer look

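A test for a value far from the rest of its group (Dixon's ratio at the 95% level) was run on 160 pairs of gene and group, where chance alone gives about 8, and picked out 35. Of these, 21 were β-Mfn2KO replicate 5 and 9 were β-Mfn1/2DKO replicate 4, all high. The genes are not independent of each other. The ratio sets the gap to the nearest value against the range of the group, so a flagged excess can be small. For Usp18 in β-Mfn2KO replicate 5 it was 1.25-fold over the mean of the others.

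In β-Mfn2KO replicate 5, the genes picked out as high were Ifit1 (1178.8 normalized counts), Ifit2 (251), Ifit3 (1197.3), Ifit3b (536.3), Isg15 (191.5), Usp18 (1303.7), Oas1a (445.1), Oas2 (455), Oas3 (60.8), Oasl2 (1311.6), Irf9 (1673.5), Ddx58 (1564.5), Dhx58 (597), Ifi44 (136), Bst2 (1063.3), Xaf1 (299.8), Gbp3 (784.6), Gbp4 (158.5), Zbp1 (112.9), Tmem173 (93.8) and B2m (9710.2). In β-Mfn1/2DKO replicate 4 these were Ifit1 (875.1), Ifit3 (1187.5), Ifit3b (549.5), Oasl2 (957.1), Irf7 (1732.3), Dhx58 (411.9), Ifi44 (199.1), Gbp3 (594.1) and Zbp1 (70.5). In Ctrl replicate 6, Oas2 (143.2) and Bst2 (575.9) stood above the group. In β-Mfn1KO islets, Ifih1 was high in replicate 1 (1864.7), Psmb8 low in replicate 3 (836.9) and Tmem173 high in replicate 4 (41.6).

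The effect of Mfn1 loss on Mx1 differed with the state of Mfn2, by a test of the difference itself, with an interaction of -2.02 on the log2 scale (adjusted p = 0.0141, edgeR). Mx1 was 27.4 to 130.8 normalized counts in Ctrl, 58.2 to 162.2 in β-Mfn1KO, 75.4 to 196.1 in β-Mfn2KO and 34.2 to 80.3 in β-Mfn1/2DKO islets. Each knockout group thus overlapped Ctrl.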

How the results depend on the processing

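Counts below are of the 40 genes and show how far they move with the processing. They stand without the share of all genes in each setting, so they do not show a response of these genes. That share moves too. For β-Mfn1/2DKO against Ctrl islets at an adjusted p alone it was 16.5% with all libraries, 15.7% in the 17 libraries and 17.9% without β-Mfn2KO replicate 5. With any 1 library left out there were 1 to 7 called genes in β-Mfn1/2DKO against Ctrl, 1 to 10 against β-Mfn1KO and 1 to 11 against β-Mfn2KO islets, and 1 to 10, 1 to 11 and 1 to 13 at an adjusted p alone. The highest count of each came without β-Mfn2KO replicate 5.

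For β-Mfn1/2DKO against Ctrl, called genes numbered 3 with total-count scaling, 2 with the authors' factors, a count filter or DESeq2, 6 with the 2 groups alone, 8 with the replicate block, 3 with counts drawn down to the smallest total, 7 in females and 4 in the 17 libraries low in immune markers. At an adjusted p alone they were 7 with total counts, 9 with the 2 groups alone, 10 with the block, 1 with depth class, 4 drawn down, 1 without β-Mfn1/2DKO replicates 4 and 5, 1 in males, 10 in females and 8 in the 17 libraries. In females, 1 gene passed for each single knockout against Ctrl, Ifi27, which was higher in β-Mfn1KO and lower in β-Mfn2KO islets. The libraries high in immune markers (Ctrl replicate 6, β-Mfn2KO replicate 5 and β-Mfn1/2DKO replicate 4) are all from males. The β-Mfn1KO group has 1 male library. Counts in males and females, here and below, are therefore not a like comparison.

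For β-Mfn1/2DKO against β-Mfn2KO, called genes numbered 1 with the authors' factors, the 2 groups alone, counts drawn down, or without β-Mfn1/2DKO replicates 4 and 5, 0 in males, 10 in females and 5 in the 17 libraries. At an adjusted p alone they were 1 with the authors' factors, 0 in males, 15 in females and 8 in the 17 libraries. Against β-Mfn1KO, called genes numbered 9 with total counts, 1 with the authors' factors or sex as a term, 4 with the filter or drawn down, 10 with the 2 groups alone, 6 with the block or DESeq2, 0 in males, 10 in females and 9 in the 17 libraries. At an adjusted p alone they were 14 with total counts, 1 with the authors' factors or sex as a term, 4 with the filter or drawn down, 11 with the 2 groups alone, 7 with the block, 6 with DESeq2, 0 in males, 13 in females and 10 in the 17 libraries.

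The numbers of the labels did not pair libraries throughout: same-numbered libraries had a mean correlation of deviations of 0.23, with a lowest of -0.11. Total-count scaling moved the median log2 fold change of all genes from 0.06 to 0.19 in β-Mfn1/2DKO against Ctrl. For named genes, 2774 alternative values stayed on the same side of the adjusted p threshold, some uncalled values near 0 changing sign, 53 lost and 46 gained an adjusted p under 0.05, and 0 called values reversed. The male, female, deep-library and 17-library fits were chosen after seeing the data, as were the interaction tests of Mfn1 by Mfn2 and of sex. The cause of these changes was not tested. Low counts limit Oas3, Ifi44, Mb21d1, Zbp1, Gbp11, Isg15, Mx1 and Tmem173, among others. Before scaling, Ctrl libraries held 4 to 22 counts of Gbp11, 5 to 26 of Isg15, 9 to 45 of Mx1 and 8 to 23 of Tmem173.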
